A study of Mus musculus with 6 samples.

Results

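The natriuretic peptide system of the heart was followed through 7 transcripts: the hormone precursors Nppa, Nppb and Nppc, the receptors Npr1, Npr2 and Npr3, and the processing protease Corin. Members were taken as the probe sets whose only annotated gene symbol was one of these names. Each of the 7 genes had 1 such probe set, among 19938 genes with a probe set of their own. Hearts were taken at 8 weeks of age from 3 Ppif-/- and 3 WT (wild-type) animals, and each heart's total RNA was read on 1 Affymetrix Gene 1.0 ST array. Ppif-/- mice lack cyclophilin D, a regulator of the mitochondrial permeability transition pore, in every cell type (a global knockout), and the line had been moved from Sv129 onto C57BL/6 by backcrossing, while WT mice were C57BL/6. The series asked which transcripts differ before the heart muscle begins to fail.

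Heart muscle cells release the peptides ANP (from Nppa) and BNP (from Nppb) when they are stretched, and these hormones lower blood pressure, promote salt excretion and restrain hypertrophy. ANP comes mainly from the atria of the adult heart, and its transcript returns to the ventricles under load, whereas CNP (from Nppc) is made chiefly by the endothelium and acts locally. ANP and BNP signal through Npr1 and CNP through Npr2, both of which make cyclic GMP (cGMP), while Npr3 removes the peptides from the tissue. Corin is a membrane protease of heart muscle that cuts the ANP precursor into its active form.

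The knockout was visible in every heart. Ppif read 6.00, 6.25 and 6.44 in Ppif-/- hearts 1 to 3 and 11.44, 11.28 and 11.49 in WT hearts 1 to 3 (log2). Array medians lay between 6.03 and 6.11. Of 23410 probe sets tested in limma, 254 passed a Benjamini-Hochberg adjusted p of 0.05, which is 1.09% of them. At an unadjusted p under 0.05 the share was 12.9%, and in 19.8% every Ppif-/- heart lay on one side of every WT heart. The labelled tissue was checked on its ventricular markers, and the ventricular myosin light chain Myl2 lay between 13.40 and 13.55 in all 6 hearts. The atrial markers Myl7 (4.86 to 5.28), Sln (4.49 to 4.76) and Bmp10 (4.30 to 5.04) lay under the array medians in every heart. Myl4, another atrial marker, lay above them. WT heart 2 held the highest or the lowest value of the 6 hearts for 45.1% of the tested probe sets, against 25.6% to 38.8% for the other hearts. For several named differences that lean on it, though not for all, a value without it is given. The labels number the hearts but do not say how each was obtained, so p-values measure the spread between these samples.

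None of the 7 transcripts passed the adjusted threshold in Ppif-/- against WT hearts, and the 2 hormone genes with the widest differences pointed in opposite directions. Nppa was 1.60-fold higher in Ppif-/- hearts and Nppb 1.95-fold lower. By the adjusted p, 0.624% of all tested probe sets were higher and 0.461% lower. At an unadjusted p under 0.05 stood 4 of the 7 (57.1%, against 12.9% of all tested probe sets), Nppa higher (background 6.1%) and Nppb, Npr3 and Corin lower (background 6.81%). Groups did not overlap for 4 of the 7 as well (57.1%, against 19.8%), Nppa and Npr2 higher (background 9.21%) and Npr3 and Corin lower (background 10.6%). The members were chosen with earlier results of these data known, so these shares carry no test. The median difference of the 7 was -0.05 on the log2 scale, where the median of all tested probe sets was -0.00229. With 3 hearts in each group no exact permutation test can reach a p under 0.1, so single genes are given with the moderated limma test.

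**Figure D1:**
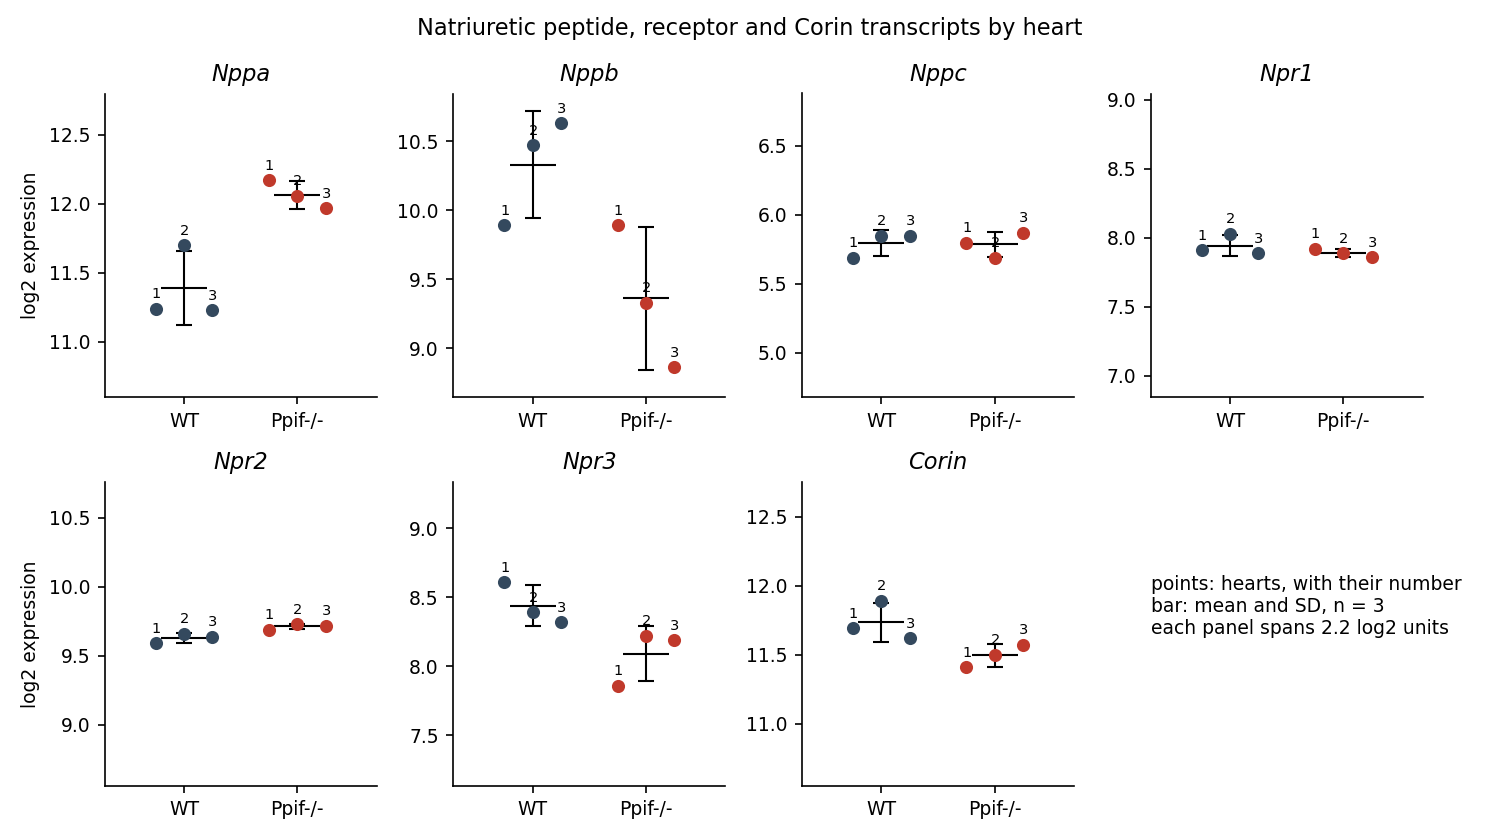
Deposited log2 expression (vertical axis) of the 7 transcripts in WT and Ppif-/- hearts, 1 point per heart with its number, and the mean and SD of 3 hearts as bars. Every panel spans the same log2 range, so the steps of Nppa (11.39 to 12.06) and Nppb (10.33 to 9.36) can be set against the narrow spread of Nppc, Npr1 and Npr2.

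Nppa and Nppb lie side by side on mouse chromosome 4, with no other measured gene between them. The stretches around their annotated transcript starts, 250 bases before and 50 after on the plus strand, are shown because the 2 genes sit next to each other and yet their values parted. Both come from RefSeq, build GRCm38.p6, at chr4:148000472-148000771 for Nppa and chr4:147985650-147985949 for Nppb. Capitals mark GATAA (the core read by GATA factors), GTGTGA (T-box factors), GGAATG (TEAD factors) and TATAAA, each on either strand.
Nppa: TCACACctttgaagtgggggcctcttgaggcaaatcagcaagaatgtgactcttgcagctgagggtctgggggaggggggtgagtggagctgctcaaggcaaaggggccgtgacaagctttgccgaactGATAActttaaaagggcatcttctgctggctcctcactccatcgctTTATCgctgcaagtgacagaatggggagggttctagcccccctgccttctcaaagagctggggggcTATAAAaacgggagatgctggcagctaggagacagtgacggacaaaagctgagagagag
Nppb: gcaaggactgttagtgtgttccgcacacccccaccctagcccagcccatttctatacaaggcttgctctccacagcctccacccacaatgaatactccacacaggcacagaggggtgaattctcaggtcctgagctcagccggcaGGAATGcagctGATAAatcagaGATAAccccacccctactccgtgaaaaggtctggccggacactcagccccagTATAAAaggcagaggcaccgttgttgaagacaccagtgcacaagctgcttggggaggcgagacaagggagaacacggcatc

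GATAA stood at 2 places in each stretch, and 25.4% of the 32851 mouse promoters in the same table hold it at least once. TATAAA stood at 1 place in each (13.6% of promoters). GTGTGA was found in Nppa alone of the pair (14.5% of promoters) and GGAATG in Nppb alone (14.7% of promoters). AAGTG, the core of Nkx2-5 sites and not capitalised above, was at 2 places in Nppa and at 0 in Nppb (46.4% of promoters). None of these motifs overlaps another in the printed stretches. CACGTG (E-box), TGANTCA (AP-1, N for any base) and CCWWWWWWGG (CArG box, W for A or T) were also searched. They stood at 0 places in either stretch. The matches describe letters in a window and were not linked to binding.

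The ANP precursor transcript Nppa read 12.17, 12.06 and 11.97 in Ppif-/- hearts 1 to 3, and 11.24, 11.70 and 11.23 in WT hearts 1 to 3. Every Ppif-/- heart lay above every WT heart, with a gap of 0.27 between the lowest of the former and WT heart 2, which was the highest WT heart. Means were 12.06 ± 0.10 and 11.39 ± 0.27 (SD, n = 3 each), and the fitted difference was 0.68 ± 0.13 (SE, 95% interval 0.37 to 0.98, limma adjusted p = 0.0681). By absolute difference Nppa ranked 251 of 23410 probe sets, and by p 346. Without WT heart 2 the difference was 0.83 and passed (adjusted p = 0.0138), while leaving out any other heart gave 0.60 to 0.73 (adjusted p = 0.161 to 0.195). Over all alternatives the adjusted p ran from 0.0138 to 0.195, and it passed in 4 of 15: without WT heart 2, with a variance trend (0.0243), with array weights (0.0153) and when probe sets with a mean under 6 were left out (0.0429).

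The BNP precursor transcript Nppb read 9.89, 9.33 and 8.86 in Ppif-/- hearts and 9.89, 10.47 and 10.63 in WT hearts, in the same order. Ppif-/- heart 1 and WT heart 1 both read 9.89 after rounding. The gap between groups was -0.01, so they overlapped slightly, and the remaining Ppif-/- hearts lay below all WT hearts. The difference was -0.97 ± 0.27 (SE, 95% interval -1.60 to -0.33, limma adjusted p = 0.183), from means of 9.36 ± 0.52 and 10.33 ± 0.39 (SD, n = 3 each). This was the 101st widest absolute difference among the 23410 tested probe sets. Nppb also varied more between hearts of one genotype than nearly all other tested probe sets. Its pooled SD was 0.457, against a median of 0.110, and 0.444% of tested probe sets had a larger one. Leaving out 1 heart moved the difference between -1.23 (without Ppif-/- heart 1) and -0.72 (without Ppif-/- heart 3), and Nppb passed in 0 of 15 alternatives (adjusted p = 0.0934 to 0.383).

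Because both genes were read on the same arrays, Nppa minus Nppb could be followed within each heart, a contrast picked with their values known. It was 2.28, 2.73 and 3.10 in Ppif-/- hearts 1 to 3 and 1.35, 1.22 and 0.60 in WT hearts 1 to 3 (log2). The size in any 1 heart reads probe brightness as well as transcript level and only its shift between hearts can be used. Every Ppif-/- heart lay above every WT heart, by 1.64 on average (2.70 ± 0.41 against 1.06 ± 0.40, SD, n = 3 each). Since the contrast was picked for this separation, it carries no test.

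Nppc, the CNP precursor, did not separate the genotypes. Its values were 5.80, 5.69 and 5.87 in Ppif-/- and 5.69, 5.85 and 5.85 in WT hearts, interleaved and under the array medians, where RMA values compress differences. The difference was -0.01 (95% interval -0.20 to 0.18, limma adjusted p = 0.981), and its sign turned in 3 of 14 alternatives.

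The receptors that make cGMP stayed close between genotypes. Npr1, the receptor of ANP and BNP, read 7.92, 7.89 and 7.86 in Ppif-/- hearts and 7.91, 8.03 and 7.89 in WT hearts. These ranges overlapped, and the difference of -0.05 had a 95% interval from -0.21 to 0.10 (limma adjusted p = 0.808), which as a ratio runs from 0.863 to 1.08. Npr2, the CNP receptor, read 9.69, 9.73 and 9.72 in Ppif-/- hearts and 9.59, 9.66 and 9.64 in WT hearts. All Ppif-/- hearts lay above all WT hearts, by a margin of 0.03. The difference of 0.08 did not pass (95% interval -0.06 to 0.23, limma adjusted p = 0.638), with a pooled SD of 0.0315 that 97.3% of tested probe sets exceeded.

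Npr3, the clearance receptor, which has no guanylyl cyclase domain, lay lower in Ppif-/- hearts. It read 7.86, 8.22 and 8.19 there and 8.61, 8.39 and 8.32 in WT hearts. The groups were apart by 0.10, and Ppif-/- heart 1 was the lowest of all. Its difference was -0.35 ± 0.12 (SE, 95% interval -0.62 to -0.07, 1.27-fold lower), with a limma adjusted p of 0.263 that ran from 0.174 to 0.476 over the alternatives. Corin read 11.41, 11.50 and 11.57 in Ppif-/- hearts and 11.69, 11.89 and 11.62 in WT hearts. Here the groups were apart by 0.05, and WT heart 2 again held the top value. The difference was -0.24 ± 0.09 (SE, 95% interval -0.45 to -0.03, 1.18-fold lower, limma adjusted p = 0.307), between -0.30 and -0.16 (without WT heart 2) when 1 heart was left out.

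**Figure D2:**
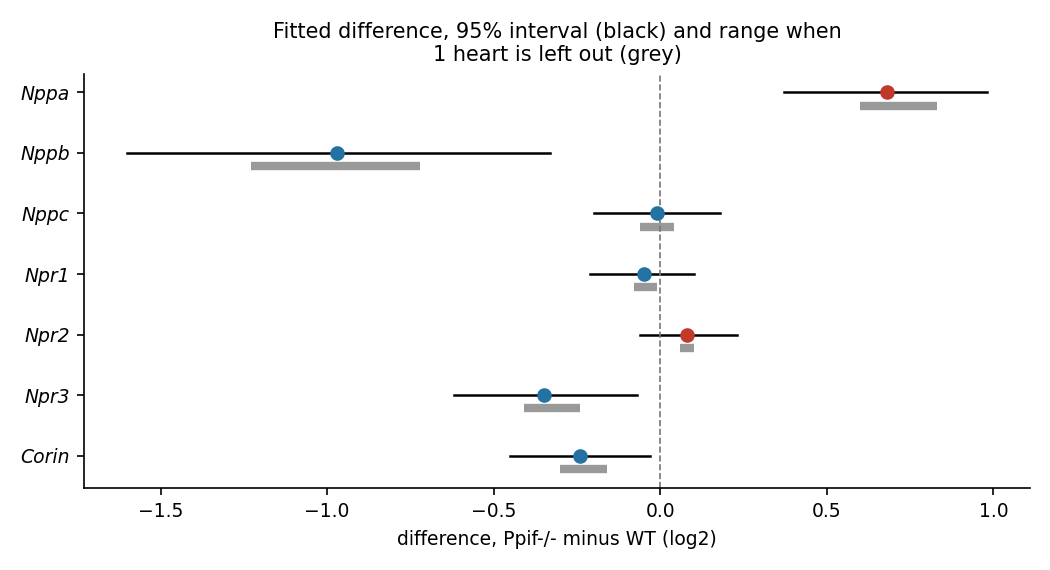
Fitted log2 difference of each transcript, Ppif-/- minus WT (point), with its 95% interval (black line) and the span of differences when 1 heart is left out (grey bar). Nppa lies at 0.68 and Nppb at -0.97, the intervals of Npr3 and Corin end just below 0, and those of Nppc, Npr1 and Npr2 include 0.

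Over the 4 lists of pathway genes, 64 were measured and 3.12% of them passed, against 1.09% of all tested probe sets, while 25% had an unadjusted p under 0.05, against 12.9%. The lists were chosen with earlier results of these data known, so these shares carry no test. The list of peptide processing and clearance, proteases along with Ostn, gave no call. Of its 7 measured genes, 0 passed in limma, and the list median was -0.11, with 2 genes higher and 1 lower by an unadjusted p under 0.05. Pcsk6, the protease that activates corin, read 8.42, 8.74 and 8.84 in Ppif-/- hearts and 9.15, 9.05 and 9.23 in WT hearts. The groups did not overlap, at a difference of -0.47 ± 0.11 (SE, limma adjusted p = 0.13). Dpp4, a peptidase that trims BNP, stood at 0.25 ± 0.07 (adjusted p = 0.181) and Ide, the insulin-degrading enzyme, which also cuts ANP, at 0.17 ± 0.06 (adjusted p = 0.302), neither of which passed. Furin, which cleaves the BNP precursor and was picked with its value known, was at -0.34 ± 0.15 (adjusted p = 0.408), with WT heart 2 at 9.87 and the other 5 hearts between 9.06 and 9.31, and at -0.15 without that heart.

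Among genes of the cGMP pathway, the Rgs2 transcript was higher. Its protein, a regulator of G protein signalling, is a substrate of the cGMP-dependent kinase. Whether the transcript follows signalling by the receptors was not tested. Rgs2 read 8.89, 9.22 and 9.11 in Ppif-/- hearts and 8.30, 8.12 and 8.44 in WT hearts. All Ppif-/- hearts lay above all WT hearts, by 0.78 ± 0.11 (SE, 1.72-fold, limma adjusted p = 0.0209). It was the 1 of 22 genes of cGMP synthesis, effect and breakdown that passed (0 lower), and the list median was 0.02, with 4 genes lower by an unadjusted p under 0.05. The call of Rgs2 ended without Ppif-/- heart 2 or 3 or WT heart 1 or 2 (adjusted p = 0.0634 to 0.103). It also ended when all probe sets were tested (0.084) and with the replicate number as a block (0.0605). Those 4 lower genes, picked with their values known, were 3 phosphodiesterases that break down cyclic nucleotides, Pde5a (-0.36 ± 0.08, adjusted p = 0.094, and 0.0488 with the filter on low values), Pde3b (-0.40 ± 0.13) and Pde2a (-0.28 ± 0.12), and the cGMP exporter Abcc4 (-0.27 ± 0.09). The kinase Prkg1, likewise picked with its value known, stood at 0.21 ± 0.09 (adjusted p = 0.387).

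Among 19 measured transcription factors that act on Nppa and Nppb, 0 passed in limma, with 2 higher and 2 lower at an unadjusted p under 0.05 and a list median of 0.01. Srf, the serum response factor, was at -0.30 ± 0.07 (adjusted p = 0.135). Hey2, a repressor enriched in compact ventricular muscle, was at -0.46 ± 0.15 (adjusted p = 0.233) and Hand2 at 0.27 ± 0.09 (adjusted p = 0.258). Gata4, whose core motif is printed above and which was picked with its value known, was at 0.01 (95% interval -0.21 to 0.22).

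Of 16 measured genes of the stretch and fetal programme, with which Nppa and Nppb are usually reported, 1 rose and 0 fell, and the list median was -0.07. Ankrd1, a stretch-responsive ankyrin repeat protein, read 13.19, 13.03 and 12.92 in Ppif-/- hearts and 12.46, 12.54 and 12.54 in WT hearts. The groups were well apart, at 0.54 ± 0.08 (SE, limma adjusted p = 0.0299), a call that ended without any 1 heart but Ppif-/- heart 3 (adjusted p = 0.067 to 0.123) and when all probe sets were tested (0.0986). The fetal myosin Myh7, picked with its value known, read 10.09, 9.94 and 9.67 in Ppif-/- hearts and 9.78, 10.98 and 9.84 in WT hearts. Only WT heart 2 stood out for it, and the difference of -0.30 ± 0.30 did not pass (adjusted p = 0.74) and was 0.09 without that heart. WT heart 2 was the highest of all 6 hearts for 9 of the 16 genes of that list (56.2%), where it was so for 23.1% of all tested probe sets. It was also the WT heart with the highest Nppa, and its part in the level of that group was measured by the fit without it, given above. Rcan1 (-0.48 ± 0.13), Ccn2 (-0.37 ± 0.13) and the angiotensinogen gene Agt (-0.62 ± 0.18) had an unadjusted p under 0.05 without passing. These genes were picked with their values known. Without WT heart 2, Ccn2 was at -0.28 and Agt at -0.39.

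**Figure D3:**
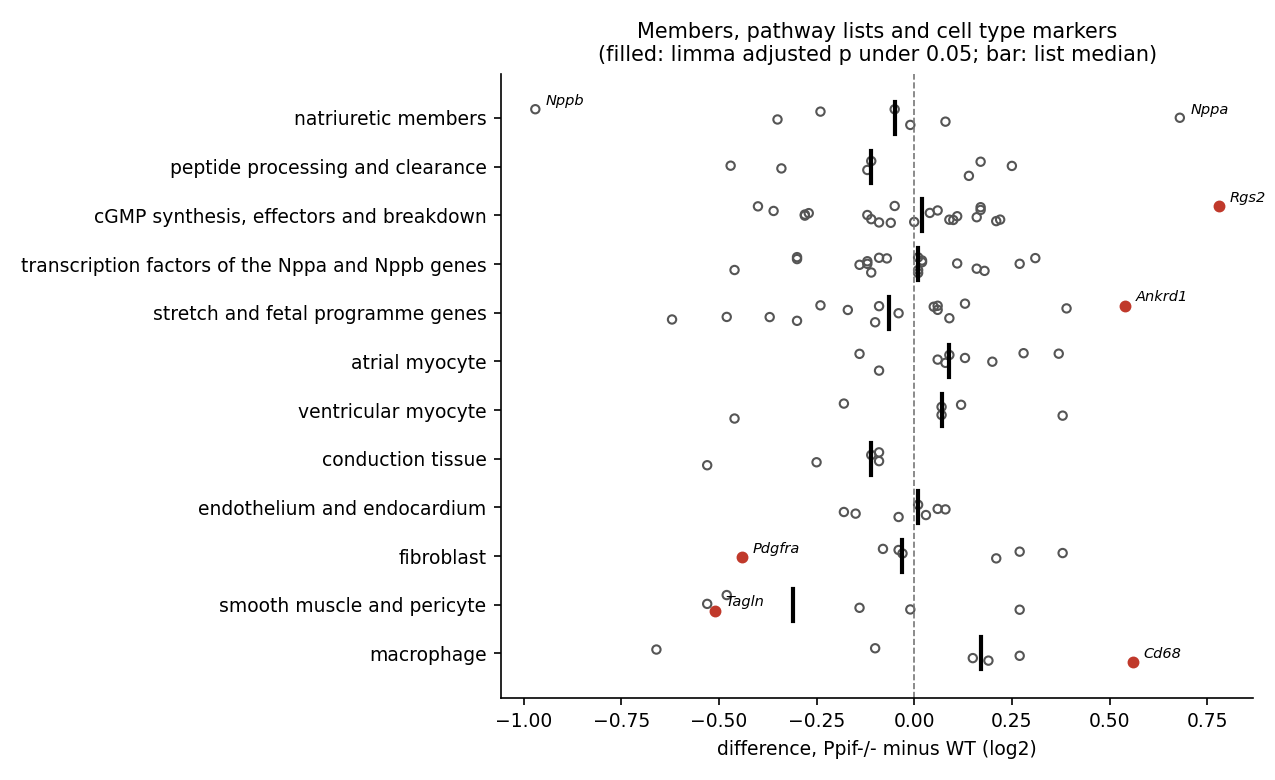
Log2 differences, Ppif-/- minus WT, of the 7 members, 4 pathway lists and 7 lists of cell type markers, 1 circle per gene, filled where the limma adjusted p was under 0.05, with the list median as a bar. Nppa and Nppb lie at the ends of their row, and Rgs2, Ankrd1, Pdgfra, Tagln and Cd68 are the filled genes.

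Since Nppa marks atrial muscle, atrial markers were read beside it. In bulk hearts more atrial cells and more transcript per cell cannot be told apart. Of 9 atrial markers 0 passed in limma, and the list median was 0.09, with 1 gene higher by an unadjusted p under 0.05. Of the markers most specific to the atria, Myl7 and Sln lay under the array medians in every heart and Myl4 above them. Myl7, the atrial regulatory light chain, read 4.96 to 5.28 in Ppif-/- and 4.86 to 5.03 in WT hearts. Sln (sarcolipin), an inhibitor of the calcium pump, read 4.66 to 4.73 and 4.49 to 4.76. Myl4, the atrial essential light chain, read 7.38, 6.60 and 6.76 in Ppif-/- hearts and 6.68, 6.42 and 6.53 in WT hearts, so that Ppif-/- heart 1 stood apart. Their differences were 0.20 ± 0.10, 0.08 ± 0.08 and 0.37 ± 0.19 (SE, adjusted p = 0.434, 0.758 and 0.46). The atrial potassium channel genes Kcna5, Kcnj5 and Kcnj3 were at 0.28, 0.13 and -0.09, and Stard10, the growth factor Bmp10 and Dkk3 at 0.09, 0.06 and -0.14. Summed on the linear scale, the atrial list was 10.97 to 11.02 in Ppif-/- and 10.89 to 10.91 in WT hearts (log2 of the sum), a sum carried by the brighter Kcnj3, Kcnj5, Stard10 and Kcna5, to which Myl7, Sln and Bmp10 add little. The mean of the log2 values, in which all 9 count alike, differed by 0.11. The part of atrial tissue in the Nppa difference was not tested.

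Ventricular markers gave no call either (0 of 6 in limma, 1 higher and 1 lower at an unadjusted p under 0.05), with a list median of 0.07. Groups did not overlap for 4 of the 6, Myl2, Myl3, Irx4 and Lbh, all higher (background 9.21%), and for 0 lower. Myl2 and Myl3, the ventricular light chains, were each at 0.07, the transcription factor Irx4 at 0.12, Lbh at 0.38 (0.19 without WT heart 2), the potassium channel gene Kcnj2 at -0.18 and Hey2 at -0.46. The summed ventricular list was 14.62 to 14.68 in Ppif-/- and 14.45 to 14.58 in WT hearts, a difference of 0.11 that was 0 on the mean of the log2 values. For conduction tissue 0 of 5 passed, with Cntn2 at -0.53 and Isl1 at -0.25. By an unadjusted limma p under 0.05, 0 were higher and 2 lower. In that list 0 of the 5 lay above 0, and its median was -0.11. For endothelium and endocardium, where Npr3 is known to be made, 0 of 7 passed and 0 had an unadjusted p under 0.05, with Tek at -0.18 and Pecam1 at -0.15, while 4 of the 7 were above 0 and the median was 0.01. That list summed to 12.76 to 12.95 in Ppif-/- and 12.85 to 12.95 in WT hearts, and Tek was at -0.10 without WT heart 2. Fibroblast markers gave 1 call of 7, lower (Pdgfra at -0.44, with Col1a2 at 0.27). Smooth muscle and pericytes gave 1 of 6, lower (Tagln at -0.51, with Myh11 at -0.53 and the pericyte marker Rgs5 at 0.27). Macrophages gave 1 of 6, higher (Cd68 at 0.56, with Mrc1 at 0.27 and Cd14 at -0.66). Over all tested probe sets 0.461% were called lower and 0.624% higher. At an unadjusted limma p under 0.05 stood 1 fibroblast marker, lower. For smooth muscle and pericytes 1 was higher and 3 lower by that threshold, and for macrophages 2 higher and 1 lower. Of all tested probe sets, 12.9% reached it in either direction. Rgs5 and Cd14 did not pass and were picked with their values known. Without WT heart 2, Col1a2 was at 0.13 and Cd14 at -0.41. The calls of Pdgfra, Tagln and Cd68 ended whichever heart was left out (adjusted p = 0.0537 to 0.145). They also ended when all probe sets were tested (0.0727, 0.104 and 0.124) and with the replicate number as a block (0.0929, 0.0887 and 0.098).

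The genes on either side of the pair were read next. Among the 20 measured genes that flank Nppb and Nppa, 10 on each side, 4 fell and 0 rose in limma (20%, against 1.09% of all tested probe sets in either direction and 0.461% lower). The groups did not overlap in 10 of the 20 (50%, against 19.8%). The closest neighbours had small differences: 2510039O18Rik and the collagen-modifying enzyme Plod1 before the pair were at -0.08 and 0.08, and the chloride transporter Clcn6 and the angiotensin receptor-associated Agtrap after it at 0.10 and 0.01, and none of these passed (adjusted p = 0.563 to 0.981), though every Ppif-/- heart lay above every WT heart for Clcn6.

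The 4 that fell, picked with their values known, were Fv1, Zfp933, Zfp982 and Fbxo44. Fv1, a retrovirus restriction gene, read 8.72, 8.84 and 8.70 in Ppif-/- hearts and 9.40, 9.65 and 9.63 in WT hearts. The groups were clearly apart, at -0.81 ± 0.09 (SE, adjusted p = 0.00583), and Fv1 passed in 15 of 15 alternatives. Fbxo44, an F-box subunit of ubiquitin ligases, read 5.93, 5.80 and 6.10 against 7.25, 8.43 and 7.97. Its difference of -1.94 ± 0.26 (adjusted p = 0.0148) was the widest of the 20, and it passed in 10 of 15. The zinc finger genes Zfp933 (-0.50 ± 0.07, adjusted p = 0.0184) and Zfp982 (-0.95 ± 0.16, adjusted p = 0.0457) passed in 7 of 15 and 8 of 14 alternatives, and since such genes have near copies, which copy these probe sets read is uncertain. Without Ppif-/- heart 1, 2 or 3 or WT heart 3, 1 of the 4 calls was left, and 2 without WT heart 2. Zfp982 and, in Ppif-/- hearts, Fbxo44 lay near or under the array medians, where RMA narrows differences. Alleles from the Sv129 source of the line, in this region with Nppa and Nppb or elsewhere, were not tested. These groups cannot tell them apart from the loss of Ppif.

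**Figure D4:**
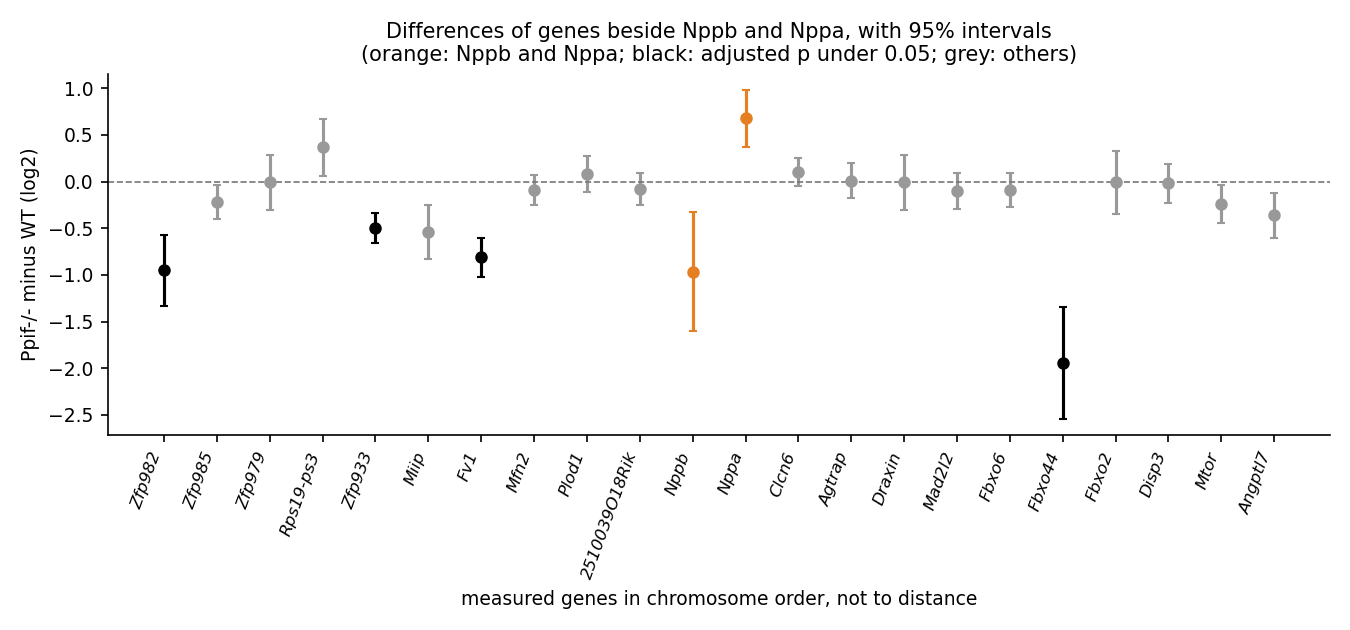
Log2 differences, Ppif-/- minus WT, with 95% intervals for Nppb and Nppa (orange) and the 10 measured genes on each side, in chromosome order and not to distance. The 4 genes past an adjusted p of 0.05 (black) are Zfp982, Zfp933, Fv1 and Fbxo44, and the genes next to the pair lie between -0.08 and 0.10.

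The genes with the most similar pattern over the 6 hearts were found by the root mean square distance of log2 values, each gene centred on its own mean, among 12906 probe sets with a mean of at least 6. Nearest to Nppa was Fcer1g, the common gamma chain of Fc receptors, at a distance of 0.110. It read 7.82, 7.45 and 7.48 in Ppif-/- hearts and 6.85, 7.11 and 6.90 in WT hearts, so WT heart 2 was its highest WT heart too. Ifit2 (0.127), Mrap (0.129), B3gnt3 (0.131) and Ppp1r10 (0.133) followed. Nearest to Nppb was Cpxm2, a carboxypeptidase-like protein, at 0.162. It read 8.84, 7.93 and 7.44 in Ppif-/- hearts and 8.55, 8.87 and 9.25 in WT hearts, with the same order of the Ppif-/- hearts as Nppb. Rhd (0.238), Prkcq (0.243), Dct (0.248) and Slc17a7 (0.288) came next. These distances describe 6 arrays and carry no test.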

How the data were processed

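The authors deposited log2 expression values per probe set, made with RMA (background correction, normalisation between arrays and summary of probes), per the submitters' processing notes. The version of its software is not given in the sources used here. Differences between dim values are narrowed by RMA. The values, 1.91 to 14.63, were used as deposited, and no detection calls or scan dates were used, so batches were not tested. The number of arrays limits the precision.

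Probe sets were named by the platform annotation, with symbols updated to the GRCm38.p6 gene table (21698 of 21789 with 1 symbol matched). The 23410 probe sets with at least 1 of the annotation's symbols entered a limma fit (version 3.58.1 under R 4.3.3, lmFit and eBayes, 2-sided, no covariates), Benjamini-Hochberg adjusted over all of them. Listed genes took their brightest 1-symbol probe set: 64 of 67 pathway genes and 46 of 47 cell type entries were measured. The named genes were the members, each pathway list's called genes or else the 3 with the smallest p, all atrial and ventricular markers, 2 per other cell type list, the 2 nearest genes on each side of the pair, and 5 look-alikes each for Nppa and Nppb. Genes outside this rule are said to have been picked with their values known. Members and lists were chosen with earlier results of these data known. The procedure was tested on simulated data, with independent normal noise at each probe set's own SD. Randomly drawn probe sets were changed, 50 at each size. It recovered 54% of added changes of 0.5 on the log2 scale, 78% of changes of 1 and 100% of changes of 2. Of its calls in the simulation, 5.14% were false, a share that belongs to this mix of changes and not to the calls reported here. Recovery is an average over probe sets and need not hold for Nppa or Nppb. Alternatives were quantile normalisation, median centring, a low-value filter, 1 probe set per gene, all probe sets, a variance trend, robust eBayes, array weights, the replicate number as a block, and leaving out each heart.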

Additional observations from a re-analysis of the deposited data

How the results depend on the processing

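The directions of Nppa, Nppb, Npr1, Npr2, Npr3 and Corin were kept in all 15 alternatives, and that of Nppc turned without Ppif-/- heart 2 (0.04) and without WT heart 2 or 3 (0.02 each), with a range of -0.06 to 0.04. The count of members that passed was 0 as reported and 1, Nppa, with the low-value filter, a variance trend or array weights, and 0 to 1 when 1 heart was left out. The count over all probe sets, 254, was 402 with the low-value filter, 131 with all probe sets, 453 with a variance trend, 386 with array weights, and 131 to 171 when 1 heart was left out. The 2 pathway genes that passed were 3, with Pde5a, under the low-value filter, 0 with all probe sets and 0 to 1 without 1 heart, and the 4 flanking genes were 1 with all probe sets and 1 to 3 without 1 heart. A fit with a replicate block gave 160 over all probe sets, 0 members, 0 pathway genes and 3 flanking genes, and ended the calls of Rgs2, Ankrd1, Pdgfra, Tagln and Cd68 (adjusted p = 0.0605, 0.094, 0.0929, 0.0887 and 0.098). Same-numbered hearts did not deviate together (correlations 0, -0.05 and 0.08). With 3 hearts per group this cannot decide whether the numbers pair the samples, and the labels do not say. Apart from fewer samples or other probe sets in the fit, the cause of these shifts was not tested. Low signal limits Nppc, Myl7, Sln, Bmp10, Zfp982 and Fbxo44.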

Other observations

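Deviations from the genotype mean show which hearts carried the spread of Nppb, Npr3, Nppa and Corin, members picked with their values known. Ppif-/- heart 1 was above its group for Nppb (0.53) and below it for Npr3 (-0.23), while Ppif-/- heart 3 was below for Nppb (-0.50) and above for Npr3 (0.10). Among WT hearts, heart 1 was below for Nppb (-0.44) and above for Npr3 (0.17), and heart 3 above for Nppb (0.30) and below for Npr3 (-0.12). WT heart 2 was above its group for both Nppa (0.31) and Corin (0.15). Deviations within a group balance out by construction, so opposite signs between its hearts are partly forced. A relation between these members was not tested.

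The RefSeq promoter stretches of Nppc, Npr1, Npr2, Npr3 and Corin, of the same length as those printed for Nppa and Nppb, held 0 matches to the cores of GATA, Nkx2-5, T-box or TEAD sites searched there. The TATA sequence stood at 1 place in Nppc.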
